A study of Mus musculus with 10 samples.

Results

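The genotype difference of colonic organoids was measured with a PPARγ ligand present, by setting the arrays labelled PPARγ KO, Rosiglitazone (n = 3) against those labelled wild type, Rosiglitazone (n = 3). These are 6 of the 10 arrays of the series, chosen by their labels alone, and the comparison covered all 23099 probe sets that the platform annotation pairs with a gene. Organoids, closed epithelial cultures, were grown from colon crypts of male C57BL/6J mice in Matrigel with Wnt, R-spondin, Noggin and EGF. Knockout mice were homozygous for a Pparg allele with loxP sites around exons 1 and 2 and carried Cre recombinase under the villin promoter, which is active in intestinal epithelium. Wild-type mice were littermates, and the labels do not say whether they also carried the floxed allele or Cre. All 6 cultures received 1 µM rosiglitazone for 24 h. Cultures given 0.1% DMSO, from 2 mice of each genotype, were the vehicle arrays of the same fit. Each array of a group came from another mouse. The fit took its spread from all 10 arrays and treated them as independent. The vehicle arrays came from mice that also gave rosiglitazone arrays, so the p-values do not measure spread between independent mice alone. Knockout replicates 1, 2 and 3 were mice 46, 45 and 44, and wild-type replicates 1, 2 and 3 were mice 48, 42 and 47. Mice 45 and 48 had no vehicle array.

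PPARγ, a nuclear receptor with fatty acids among its natural ligands, pairs with the retinoid X receptor and binds DNA at direct repeats of the half-site AGGTCA spaced by a single base. Rosiglitazone, a thiazolidinedione drug, is a selective agonist. In the colon the receptor is abundant in the epithelium, where ligands are known to raise genes of lipid storage and fatty acid oxidation. A wild-type culture with ligand holds receptor and agonist together, while a culture without the receptor has the agonist alone. This comparison therefore holds genotype differences present without ligand as well as any that depend on it.

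The level of the targeted gene did not separate the labels. All values are levels after robust multi-array averaging (RMA) on the log2 scale, where 1 unit is a 2-fold change. The Pparg probe set read 8.78, 7.37 and 8.41 in the knockout-labelled arrays and 8.30, 7.59 and 7.93 in wild type. The difference, knockout minus wild type, was 0.25 (SE 0.31, adjusted p = 0.999, limma), and the arrays overlapped. Without both arrays of mouse 46 it was -0.05. Only exons 1 and 2 were floxed. The position of this probe set within Pparg is not given in the sources used here. It is therefore no check of the deletion, and the genotypes, with each direction drawn from them, rest on the labels alone. Of the 20 measured genes nearest to Pparg on its chromosome, 0 passed the threshold, and their differences ran from -0.41 to 0.20.

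The arrays were alike over all genes. Their correlations over the tested probe sets were 0.986 to 0.991 within the knockout-labelled group, 0.992 to 0.995 within wild type and 0.989 to 0.992 between the genotypes, so arrays of different genotype were about as alike as arrays of one group. In a principal component analysis of the 6 arrays, the first component (29.8% of the variance) set knockout replicate 2 (score 35.24) apart from knockout replicate 1 (-32.77), with the other 4 arrays between -7.87 and 8.80. The second component (22.9%) separated the genotypes, at -20.30 to -14.16 for knockout and 3.39 to 26.31 for wild type, and wild-type replicate 1 was the wild-type array nearest to the knockout. The epithelial markers Epcam, Cdh1, Vil1, Krt8 and Cdx2 read 8.39 to 12.54 in all 6 arrays, with mean levels at the 87.5th to 99.9th percentile of probe sets. The measured defining markers of immune cells read 2.05 to 2.81, of stroma 1.78 to 4.08 and of endothelium 2.01 to 3.06, in the dim range of the arrays. Of the colonocyte markers, Car1, Cdhr5 and Krt20 were bright, while Aqp8 (1.88 to 2.48) and Slc26a3 (2.15 to 4.57) were dim. In bulk cultures fewer cells of a type and less RNA per cell cannot be told apart.

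With ligand present, 5 genes differed between the genotypes at an adjusted p under 0.05, 1 higher and 4 lower in the knockout-labelled arrays, which is 0.0216% of the probe sets tested. The gene that was higher, Mt1, encodes metallothionein 1, a small cysteine-rich protein that binds zinc and copper. Those that were lower were Cyp2c65, a cytochrome P450 of the subfamily that oxidises arachidonic acid and drugs, Arl14, a small GTPase of the ARF-like family, Adhfe1, a mitochondrial enzyme that oxidises 4-hydroxybutyrate, and 1810065E05Rik, a protein-coding gene known by its clone name. The median difference over all probe sets was 0.00, and 50.5% of them were above 0. In 4.22% of them all knockout-labelled arrays lay above all wild-type arrays (wholly higher), and in 4.47% all lay below (wholly lower). At an unadjusted p under 0.05 there were 446 higher (1.93%) and 664 lower (2.87%), 1110 in all, where 1155 are expected by chance.

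Mt1 read 10.49, 10.62 and 10.31 in the knockout-labelled arrays and 8.48, 8.57 and 8.35 in wild type. The groups were far apart and each was tight (SD 0.16 and 0.11). The difference was 2.01 (SE 0.16, adjusted p = 0.00261), a 4.02-fold higher level, and it passed in all 22 alternative fits, with adjusted p from 0.000213 to 0.0404. The vehicle arrays read 10.48 and 10.10 against 8.73 and 8.30, so the groups were also apart without ligand. The other metallothioneins did not show this difference. Mt2, its neighbour, which is usually induced with it by zinc, read 7.12, 9.72 and 8.67 against 8.57, 8.65 and 7.63 (difference 0.22, SE 0.56). Its knockout-labelled arrays were widely spread (SD 1.31). Mt3 and Mt4 each differed by 0.02, at low levels (3.78 to 4.38 and 3.11 to 3.37) where a difference would be compressed. Mt1 was thus the only 1 of 4 metallothionein probe sets in which the groups did not overlap.

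Cyp2c65 read 2.04, 1.75 and 1.86 in the knockout-labelled arrays, the dim end of the scale, and 4.60, 6.30 and 7.24 in wild type. The difference was -4.16 (SE 0.50, adjusted p = 0.04). The knockout-labelled levels lay below the 25th percentile of all probe sets' means (2.48), where differences are compressed and the table gives no detection call, so no fold is given. 1810065E05Rik read 4.13, 3.23 and 3.75 against 7.36, 9.96 and 10.51, a difference of -5.57 (SE 0.64, adjusted p = 0.04) or 47.6-fold. In both genes every knockout-labelled array lay below every wild-type array, and the lowest wild-type array was replicate 1. Without it the differences were -4.89 for Cyp2c65 and -6.53 for 1810065E05Rik.

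Arl14 read 5.17, 4.37 and 5.06 in the knockout-labelled arrays and 6.37, 6.49 and 6.42 in wild type. The wild-type arrays were nearly equal (SD 0.06), and the difference was -1.56 (SE 0.19, adjusted p = 0.04), 2.95-fold. Adhfe1 read 5.74, 5.70 and 5.59 against 6.57, 6.85 and 6.77, a difference of -1.05 (SE 0.13, adjusted p = 0.04), 2.07-fold, with both groups tight. These lower calls were close to the threshold. Each passed in 6 or 7 of the 21 or 22 alternative fits that tested it, and the count of called genes fell to 1, Mt1, without knockout replicate 1 or 3, without wild-type replicate 2, or without any one of the 4 vehicle arrays. Without knockout replicate 2 or wild-type replicate 3 it was 3. With only the 6 rosiglitazone arrays, 1 a mouse, Mt1 alone was called. The lower calls were thus made only with vehicle arrays, which repeat mice, in the fit. With mouse as a random block 6 genes were called, the 5 above among them.

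**Figure D1:**
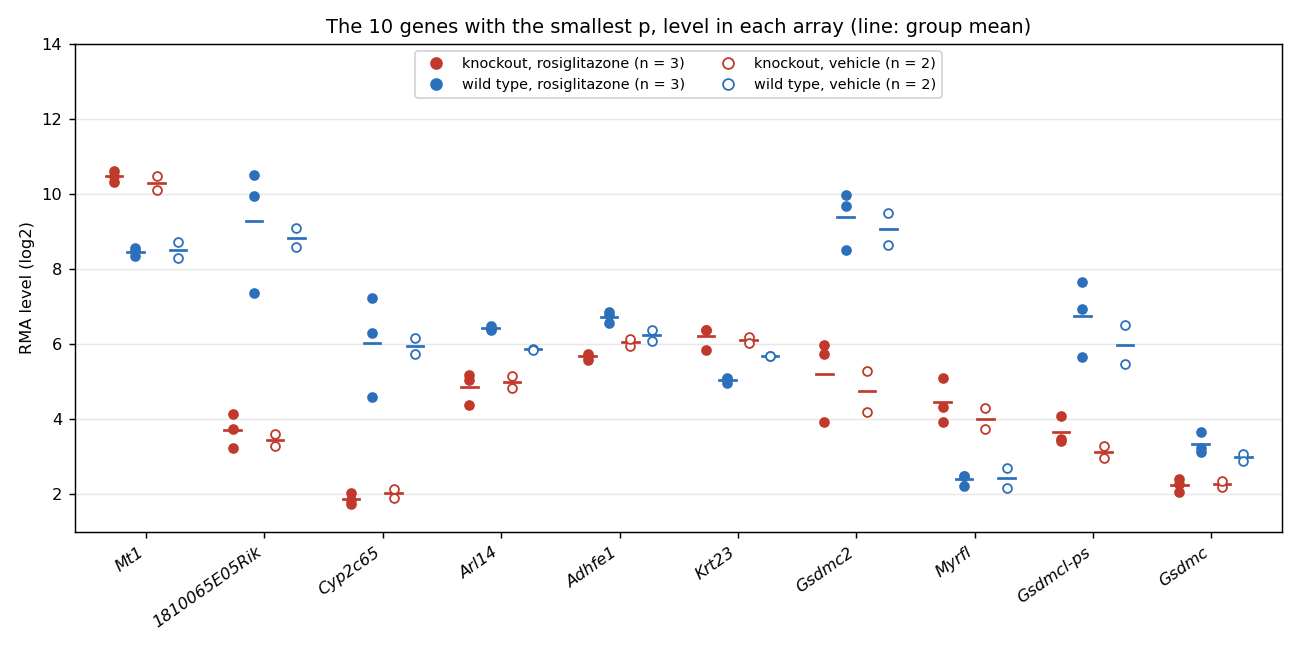
RMA level (log2) of the 10 genes with the smallest p in each array, filled points for rosiglitazone (n = 3 a genotype), open points for vehicle (n = 2), red for knockout-labelled and blue for wild type, with a line at each group mean. Under rosiglitazone the groups do not overlap in any of the 10 genes, and in Mt1 the knockout-labelled arrays sit at 10.31 to 10.62 above wild type at 8.35 to 8.57.

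Among genes just outside the threshold were the other members of the 10 smallest p. Krt23, an epithelial keratin, read 6.39, 5.85 and 6.39 in the knockout-labelled arrays and 5.08, 5.10 and 4.97 in wild type (difference 1.16, SE 0.15, adjusted p = 0.0511). Myrfl, a relative of the myelin regulatory factor, read 5.09, 4.34 and 3.93 against 2.49, 2.48 and 2.23 (2.05, SE 0.28, adjusted p = 0.0511). The remaining 3 were gasdermins of the C cluster. Gsdmc2 read 3.94, 5.74 and 5.97 against 8.52, 9.98 and 9.68 (-4.18, SE 0.55, adjusted p = 0.0511). The pseudogene Gsdmcl-ps differed by -3.10 (adjusted p = 0.0772) and Gsdmc by -1.08 (adjusted p = 0.0997). Each of these 5 genes kept its groups apart in every rosiglitazone array.

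The upstream sequences of 3 lower genes are shown because they are the called genes whose start in the RefSeq promoter table is also the start of the annotated gene. Each holds the 250 bases before the start, on the plus strand of GRCm38.p6, with matches to the searched motifs in capitals: chr11:58420861-58421110 for 1810065E05Rik, chr19:39060756-39061005 for Cyp2c65 and chr3:69222169-69222418 for Arl14.
1810065E05Rik: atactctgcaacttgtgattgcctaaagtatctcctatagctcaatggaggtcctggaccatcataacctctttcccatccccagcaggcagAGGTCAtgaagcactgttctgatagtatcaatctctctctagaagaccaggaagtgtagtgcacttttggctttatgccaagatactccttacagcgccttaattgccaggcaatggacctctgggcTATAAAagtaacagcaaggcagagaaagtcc
Cyp2c65: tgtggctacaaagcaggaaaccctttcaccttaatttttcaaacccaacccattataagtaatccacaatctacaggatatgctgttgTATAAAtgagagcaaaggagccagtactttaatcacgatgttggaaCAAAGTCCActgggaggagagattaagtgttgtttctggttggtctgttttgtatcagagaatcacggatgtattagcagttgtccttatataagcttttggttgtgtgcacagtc
Arl14: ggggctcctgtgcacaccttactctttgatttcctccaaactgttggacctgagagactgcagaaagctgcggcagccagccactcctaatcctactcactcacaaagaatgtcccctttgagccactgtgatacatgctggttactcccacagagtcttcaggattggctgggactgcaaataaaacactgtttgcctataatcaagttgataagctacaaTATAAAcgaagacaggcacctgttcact
Searches ran on both strands for the nuclear receptor half-site AGGTCA, its direct repeat AGGTCANAGGTCA, the HNF4 motif CAAAGTCCA and the TATA box TATAAA. The half-site lies within its direct repeat. The half-site occurred once, in 1810065E05Rik, 158 to 153 bases before the start, and 14% of all 32851 windows of the table hold it. The direct repeat matched in none of the 3 windows, as in all but 0.0335% of the table. The HNF4 motif, named for an intestinal and hepatic nuclear receptor, occurred in Cyp2c65, 116 to 108 bases upstream (0.384% of windows hold it). TATAAA matched in each of the 3 (12.4% of windows), 31 bases upstream in 1810065E05Rik, 28 in Arl14 and 162 in Cyp2c65. A match is a description of the letters and not a bound site.

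The genotype difference of these 10 genes had the same sign without ligand, and in 9 of them it was smaller by varying amounts. These genes were chosen by their p under rosiglitazone, so smaller vehicle differences can follow from that choice. The tests between the contrasts given below share this limit. The vehicle arrays came from 4 of the same 6 mice, and limma called 0 probe sets there (1314 at an unadjusted p under 0.05). The vehicle difference was 1.77 (SE 0.19) for Mt1, -5.39 (SE 0.79) for 1810065E05Rik, -3.92 (SE 0.61) for Cyp2c65 and -4.32 (SE 0.68) for Gsdmc2. It was -2.86 (SE 0.54) for Gsdmcl-ps, 1.59 (SE 0.34) for Myrfl against 2.05 with ligand, and -0.71 (SE 0.20) for Gsdmc against -1.08. For Adhfe1 it was -0.19 (SE 0.16), against -1.05 with ligand. For Krt23 it was 0.42 (SE 0.19) against 1.16, and for Arl14 -0.87 (SE 0.24) against -1.56. The test of the difference between these contrasts gave -0.86 for Adhfe1 (SE 0.21, unadjusted p = 0.00181, limma), 0.74 for Krt23 (SE 0.24, 0.0117) and -0.69 for Arl14 (SE 0.31, 0.0472). None passed after adjustment (adjusted p = 1 for each), and 0 probe sets were called for this difference, with 536 at an unadjusted p under 0.05. For the other 7 genes the unadjusted p ran from 0.176 to 0.872. This fit leaves out that arrays share mice. With mouse as a random block 0 were called, the smallest adjusted p was 0.197, and 1147 had an unadjusted p under 0.05. Adhfe1 then differed by -0.90 (SE 0.17), Krt23 by 0.82 (SE 0.19) and Arl14 by -0.59 (SE 0.24), each with an adjusted p of 0.96.

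Within the 4 mice that gave both arrays, Adhfe1 was higher with rosiglitazone than with vehicle in wild-type mice 42 and 47, by 0.46 and 0.67, and differed by -0.56 and -0.22 in knockout-labelled mice 44 and 46. Krt23 went the other way, at -0.59 and -0.73 in wild type and 0.35 and 0.20 in the knockout-labelled mice. Arl14 read 0.63 and 0.56 higher with ligand in wild type and 0.22 and 0.02 in the knockout-labelled mice. In Adhfe1 and Krt23 the genotypes thus had values of opposite sign, and in Arl14 the wild-type mice had the larger values. Mt1 differed by -0.15 and 0.05 in wild type and 0.21 and 0.01 in the knockout-labelled mice, values near 0. Cyp2c65 differed by 0.56 and 1.08 in wild type and -0.05 and -0.10 in the knockout-labelled mice. For 1810065E05Rik the values were 1.38 and 1.41 against 0.14 and 0.85, and for Gsdmcl-ps 1.16 and 1.48 against 0.50 and 0.14. The genotypes overlapped in Gsdmc2 (0.48 and 1.03 against 0.67 and -0.26), Gsdmc (0.03 and 0.32 against 0.05 and -0.13) and Myrfl (0.32 and -0.47 against -0.36 and 1.34).

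**Figure D2:**
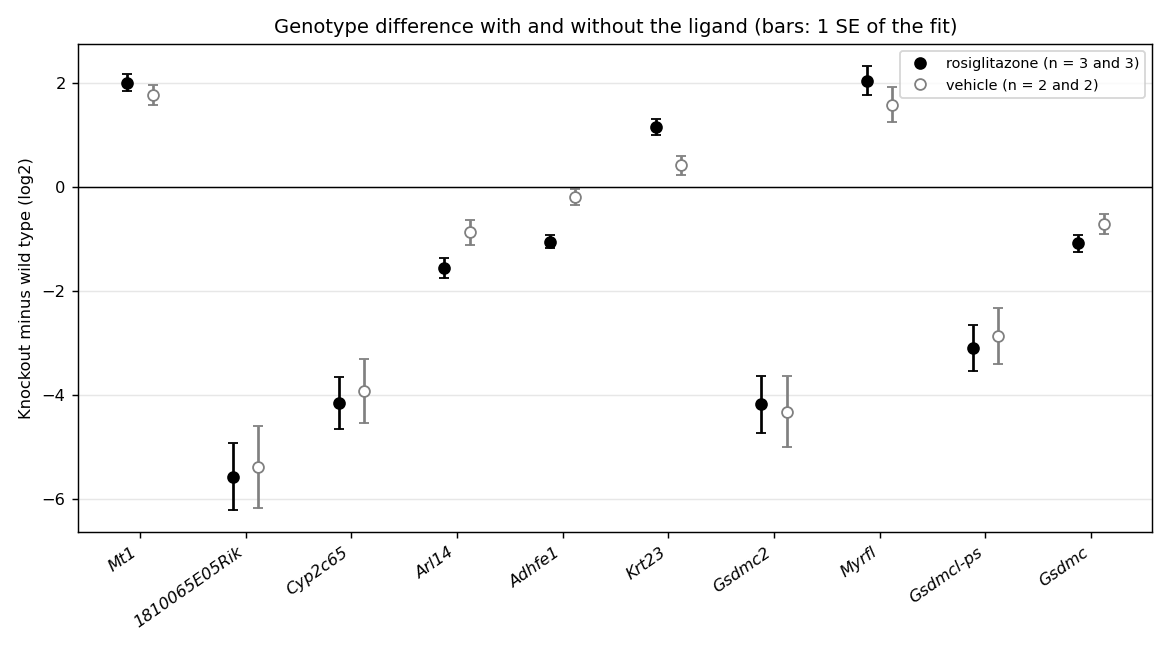
Knockout-labelled minus wild type on the log2 scale for the 10 genes with the smallest p, with rosiglitazone (black, n = 3 and 3) and with vehicle (open, n = 2 and 2), bars of 1 SE of the fit. Adhfe1 stands at -1.05 with ligand and -0.19 without, Mt1 at 2.01 and 1.77, and Cyp2c65 at -4.16 and -3.92. The 2 contrasts do not rest on the same mice, as mice 45 and 48 had no vehicle array.

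Several of the lower genes belong to 2 gene families, in which most members overlapped between the genotypes. Gasdermins are proteins that form pores in membranes once cleaved, and the C genes form a cluster of near-identical copies in the mouse. Of 15 gasdermin probe sets, 5 had all knockout-labelled arrays below all wild-type arrays, and all 5 belong to the C cluster. Over all probe sets 4.47% lay wholly lower and 4.22% wholly higher. Besides Gsdmc2, Gsdmcl-ps and Gsdmc, these were a probe set shared by Gsdmc2, Gsdmc3, Gsdmc and Gsdmc4 (difference -3.86, SE 0.61) and one shared by Gsdmc2 and Gsdmc4 (-1.96, SE 0.54). A second probe set of that pair read 3.05, 6.68 and 3.07 against 5.60, 8.10 and 6.84 (-2.58, SE 0.90) and overlapped through knockout replicate 2. The gene list of gasdermins, which does not hold Gsdmcl-ps, had 7 measured genes and a median of 0.02. Which copy carries the signal is uncertain, since such probes can bind several. Gsdmd, the gasdermin of inflammasome cell death, read 7.94, 7.05 and 7.17 against 7.65, 7.56 and 7.74 (difference -0.26), and the A and E genes differed by 0.02 to 0.36. No gasdermin probe set outside the C cluster kept its groups apart, and 2 probe sets shared by Gsdmcl2 and Gsdmcl-ps, within it, differed by 0.03 and 0.04.

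The Cyp2c subfamily had 14 probe sets, of which 3 lay wholly lower, beside 4.47% of all probe sets. Next to Cyp2c65, Cyp2c55 read 5.90, 6.34 and 5.25 in the knockout-labelled arrays and 7.57, 8.52 and 9.25 in wild type (difference -2.62, SE 0.45, adjusted p = 0.197), and Cyp2c66 differed by -0.76 (SE 0.38). Cyp2c23 was the only one that lay wholly higher, by 0.23 at a dim level of 2.53 to 3.00. The other 10 differed by -0.09 to 0.37 at levels from 1.56 to 3.38, near the bottom of the scale, where a difference would be compressed. Without wild-type replicate 1, the lowest wild-type array for this gene, Cyp2c55 differed by -3.06 (adjusted p = 0.0492).

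**Figure D3:**
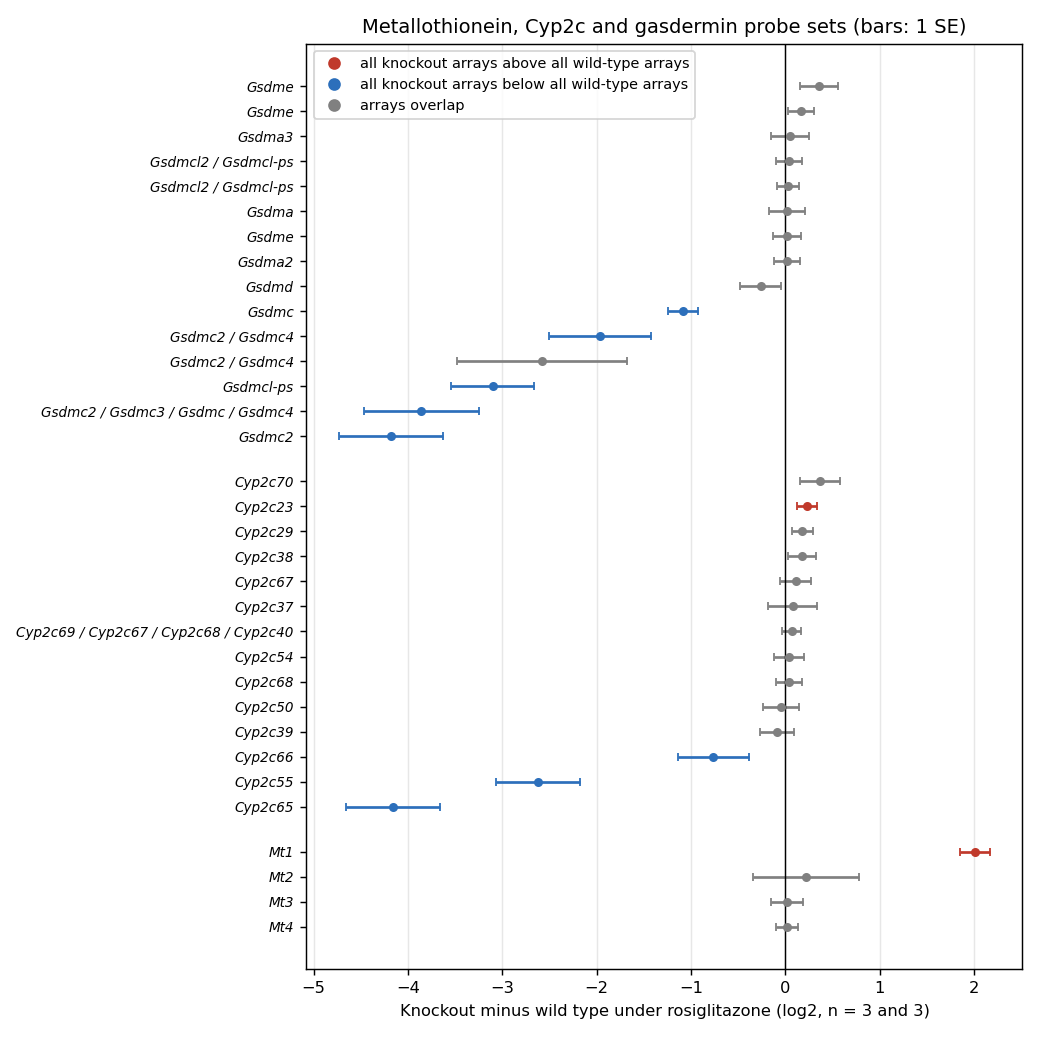
Difference between knockout-labelled and wild-type arrays under rosiglitazone (log2, n = 3 and 3, bars of 1 SE) for each gasdermin, Cyp2c and metallothionein probe set. Blue points have all knockout-labelled arrays below all wild-type arrays (5 gasdermin and 3 Cyp2c probe sets), red points all above (Mt1 and Cyp2c23), and grey points overlap.

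Textbook PPAR target genes were not called, and the values of the lipid droplet genes split along 1 wild-type array. Of 51 measured targets, 17 were above 0 and 34 below, with a median difference of -0.09, where over all probe sets 50.5% were above 0. With vehicle 28 were above 0 and 23 below (median 0.04). With each array centred on its median, the rosiglitazone counts were 24 above 0 and 27 below (median -0.02). Under rosiglitazone the groups did not overlap in 4 that were lower (7.84%, beside 4.47% of all probe sets) and 1 that was higher (1.96%, beside 4.22%). At an unadjusted p under 0.05 (limma), 11 were lower (21.6%, beside 2.87% of all probe sets) and 2 higher (3.92%, beside 1.93%). The lower ones numbered 8 without knockout replicate 2 and 12 without wild-type replicate 1. Plin2, the coat protein of lipid droplets, read 7.71, 7.48 and 7.66 in the knockout-labelled arrays and 7.97, 8.75 and 8.84 in wild type. Its difference was -0.90 (SE 0.21, adjusted p = 0.526), without overlap, and wild-type replicate 1 was the array next to the knockout group. Cidec, which helps droplets fuse, read 5.17, 3.68 and 4.82 against 5.04, 6.08 and 6.55 (-1.34, SE 0.42). Hilpda, a droplet protein that restrains lipolysis, read 5.74, 4.91 and 5.39 against 5.52, 6.97 and 6.73 (-1.06, SE 0.34). Wild-type replicate 1 lay within or beside the knockout-labelled range in each of these genes, and the 2 other wild-type arrays lay above it.

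Pdk4, the kinase that shuts off pyruvate dehydrogenase, read 2.18, 2.36 and 2.63 in the knockout-labelled arrays and 2.34, 3.80 and 4.26 in wild type (-1.07, SE 0.39, adjusted p = 0.962). Angptl4, a secreted inhibitor of lipoprotein lipase, read 3.06, 4.79 and 3.31 against 2.89, 4.88 and 5.93 (-0.85, SE 0.66). Acaa1b, a peroxisomal thiolase, read 3.49, 3.02 and 3.70 against 3.53, 4.30 and 4.80 (-0.81, SE 0.33). In all 3 the groups overlapped through wild-type replicate 1. With vehicle they differed by 0.11, -0.27 and 0.40. Within wild-type mice 42 and 47, rosiglitazone minus vehicle was 1.36 and 1.71 for Pdk4, 1.44 and 2.41 for Angptl4, and 1.23 and 1.89 for Acaa1b. In knockout-labelled mice 44 and 46 it was -0.16 and -0.24, -0.19 and 0.14, and -0.20 and 0.61. Mouse 48, the source of wild-type replicate 1, had no vehicle array and is not in these values. The test between the contrasts gave -1.19 for Pdk4 (unadjusted p = 0.0798, limma), -0.57 for Angptl4 (0.596) and -1.21 for Acaa1b (0.0439). None of them passed after adjustment. The fatty acid carriers Fabp1, Fabp4 and Cd36 were dim, with differences of 0.05, 0.22 and 0.08. Lpl, lipoprotein lipase, was the target that lay wholly higher, at 2.67, 2.68 and 2.96 against 2.48, 2.17 and 2.47 (0.40, SE 0.13).

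Leaving out wild-type replicate 1, from mouse 48, raised the count of called genes from 5 to 23, of which 21 were lower in the knockout-labelled arrays (0.0996% of probe sets). Among them were Plin2 (-1.18, SE 0.13, adjusted p = 0.0174), Pdk4 (-1.64, SE 0.19, adjusted p = 0.0244) and Dgat2, which makes triglyceride (-1.59, SE 0.19, adjusted p = 0.027). Replicate 1 was the lowest wild-type array in each of these genes, so leaving it out had to enlarge their differences. These calls are therefore no independent evidence. Hilpda came to -1.50 (adjusted p = 0.072), Cidec to -1.76 (0.311) and Acaa1b to -1.15 (0.56). Arl14 then missed the threshold (adjusted p = 0.0537). The median of the 51 PPAR targets was -0.13 in that fit, with 2 called. Over the 4 mice with both treatments, which hold neither mouse 48 nor mouse 45, 16 genes were called. What set the array of mouse 48 apart was not tested.

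**Figure D4:**
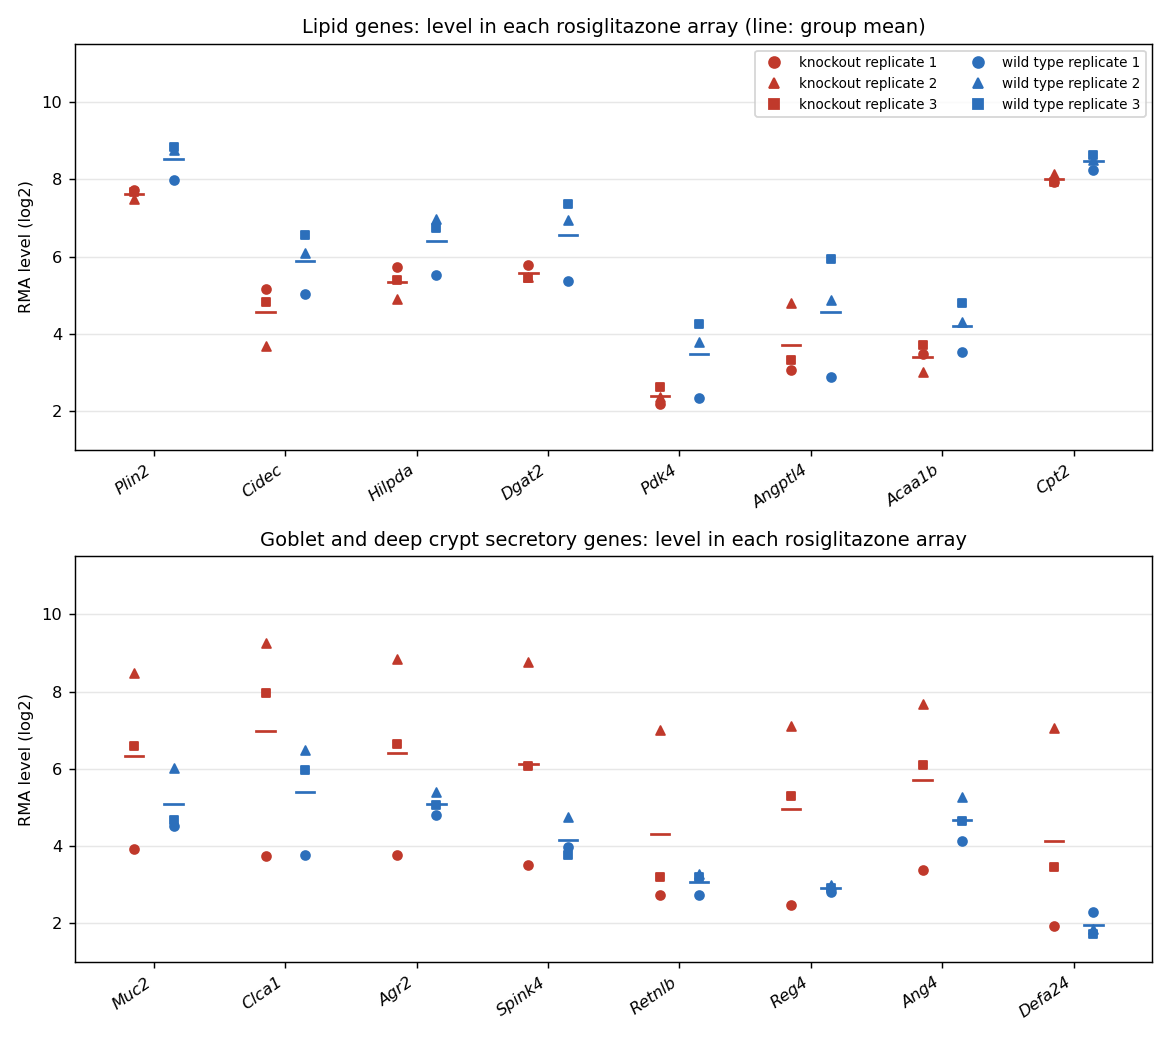
RMA level (log2) in each rosiglitazone array, red for knockout-labelled and blue for wild type, with circles, triangles and squares for replicates 1, 2 and 3 and a line at the group mean. In the upper panel wild-type replicate 1 reads near the knockout-labelled arrays for Pdk4 (2.34) and Dgat2 (5.37), and in the lower panel knockout replicate 2 reads highest for every gene (8.47 for Muc2).

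The receptors and cofactors of the pathway had small differences, from -0.32 to 0.29. Of 29 measured, 12 were above 0 and 17 below, with a median of -0.05 and 0 called. Ppard, the sister receptor, differed by 0.07, Ppara by -0.03, and Rxra, the heterodimer partner, by -0.16. The coactivator Ppargc1b read 5.87, 6.18 and 5.98 in the knockout-labelled arrays and 6.25, 6.48 and 6.27 in wild type (-0.32, SE 0.13), without overlap. The coactivators Ncoa1 (0.10) and Ncoa2 (0.12) lay wholly higher by small amounts. Vdr, the vitamin D receptor, differed by -0.29 and Cited2, a cofactor of CBP, by 0.29, both with overlap.

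Among enzymes that burn fatty acids, 0 were called. Of 29 genes of mitochondrial fatty acid oxidation and ketogenesis, 17 were below 0 (median -0.07). Wholly lower were 3 (10.3%, beside 4.47% of all probe sets), and 0 lay wholly higher. Cpt2, the inner-membrane carnitine palmitoyltransferase, read 7.93, 8.14 and 7.93 against 8.25, 8.50 and 8.63 (-0.46, SE 0.14, adjusted p = 0.915). Acaa2, the mitochondrial thiolase, differed by -0.50 (SE 0.19) and Acad10, an acyl-CoA dehydrogenase, by -0.49 (SE 0.15). Cpt1a, which admits fatty acids to mitochondria, differed by -0.14, while Acadl differed by 0.23. Without wild-type replicate 1 the list's median was -0.21. In peroxisomal lipid metabolism 23 of 33 genes were below 0 (median -0.05), 4 lay wholly lower (12.1%) and 0 wholly higher. Those lower included Acox2, an oxidase of branched fatty acids and bile acid intermediates (-0.48, SE 0.19), and Acaa1a (-0.41). Also among them were the peroxisome assembly factors Pex16 (-0.22) and Pex19 (-0.24). In 33 genes of lipid droplets and triglyceride the median was -0.06, and in 21 of fatty acid uptake and binding 0.05.

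Lipid synthesis showed single genes of larger size. Fads3, of the fatty acid desaturase cluster, read 5.43, 7.57 and 8.07 in the knockout-labelled arrays and 8.70, 9.03 and 8.84 in wild type (-1.83, SE 0.62, adjusted p = 0.942). Insig1, which holds the sterol-sensing SREBP complex in the endoplasmic reticulum, read 8.40, 8.81 and 8.65 against 9.09, 9.14 and 9.49 (-0.62, SE 0.15, adjusted p = 0.602). In both genes the groups did not overlap, and the vehicle differences were -1.51 and -0.91. Of 22 cholesterol genes, 15 were below 0 (median -0.08). Wholly lower were 5 (22.7%, beside 4.47% of all probe sets), and 0 lay wholly higher. Those lower included Srebf2 (-0.17), the master regulator of the pathway, Mvd (-0.30) and Fdft1 (-0.12). The 23 fatty acid synthesis genes had a median of -0.01.

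Glycolysis and hypoxia genes were the list with the lowest median, -0.15, with 32 of 34 below 0 and 0 called. Ndrg1, a hypoxia-induced gene, read 8.53, 6.80 and 8.87 against 8.47, 9.19 and 9.86 (-1.11, SE 0.49), and Vegfa, the vascular growth factor, read 8.41, 6.83 and 8.09 against 8.11, 8.40 and 8.57 (-0.58, SE 0.33). Knockout replicate 2 was the lowest array in both. Members of the list deviated in that array by a median of -0.50, and by -0.05 to 0.22 in the other 5. The part of this array in the list's median was not tested beyond leaving it out. Without it 15 of the 34 were above 0, the median was -0.02, and Ndrg1 and Vegfa differed by -0.48 and -0.11. Aldoa (-0.25) and Ldha (-0.12), bright glycolytic enzymes, lay wholly lower with all arrays. Oxidative phosphorylation had 23 of 54 genes above 0 and a median of -0.02, and 1 of them, Ndufb6, lay wholly higher (0.31, SE 0.20). This count moved with single arrays. Without wild-type replicate 1 there were 10 above 0 and 44 below (median -0.09). Over the 4 mice with both treatments the counts were also 10 and 44 (median -0.13). Leaving out wild-type replicate 2 gave 33 above 0 and 21 below (median 0.02). With vehicle 8 were above 0 and 46 below (median -0.13).

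Genes of differentiated colonocytes had differences in both directions. Of 51 measured, 23 were above 0 and 28 below, with a median of -0.07. Cyp2c65 was the only one called. Wholly lower were 6 (11.8%, beside 4.47% of all probe sets), and 3 lay wholly higher (5.88%, beside 4.22%). Hsd3b3, a steroid dehydrogenase, read 3.21, 3.05 and 3.90 in the knockout-labelled arrays and 4.21, 5.42 and 6.82 in wild type (-2.10, SE 0.56, adjusted p = 0.719). Car1, the colonic carbonic anhydrase, differed by -0.57 (SE 0.20) and Slc26a2, a sulfate transporter, by -0.48 (SE 0.14). The genes that lay higher are membrane transporters and a channel. Slc13a1, a sodium-coupled sulfate transporter, read 4.47, 5.04 and 5.58 against 3.71, 2.85 and 3.55 (1.66, SE 0.30, adjusted p = 0.274). Slc5a8, which takes up short-chain fatty acids, read 7.45, 6.50 and 6.77 against 6.25, 5.29 and 5.36 (1.28, SE 0.31, adjusted p = 0.602), and Cftr, the chloride channel, differed by 0.58 (SE 0.15). With vehicle Slc13a1 differed by 0.31, and the test between the contrasts gave 1.34 (unadjusted p = 0.0185, limma, adjusted p = 1).

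Prostaglandin and detoxification genes held a few large differences. Ptges, the inducible prostaglandin E synthase, read 3.95, 3.41 and 4.04 against 4.85, 5.18 and 5.21 (-1.28, SE 0.23, adjusted p = 0.265), and the vehicle difference was -1.88. It was the only one of 23 prostaglandin genes (median -0.03) whose groups did not overlap. Among 57 cytochrome P450 and conjugation genes the median was 0.04, with 35 above 0 and 22 below. Wholly lower were 6 (10.5%, beside 4.47% of all probe sets), among them Cyp2c65, the only one called. Another 4 lay wholly higher (7.02%, beside 4.22%), of which 2 follow. Nqo1, a quinone reductase, read 7.97, 7.16 and 7.32 against 6.61, 7.14 and 6.14 (0.85, SE 0.28), and Ugt2b35, a glucuronosyltransferase, read 3.42, 6.16 and 4.13 against 3.33, 2.76 and 2.62 (1.66, SE 0.55).

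Beyond Mt1, no metal gene was called. Of 25 metallothionein, zinc and iron genes, 16 were above 0 (median 0.04). Wholly higher were 5, Mt1 included (20%, beside 4.22% of all probe sets), and 0 lay wholly lower. Slc40a1, the iron exporter ferroportin, read 7.65, 7.03 and 7.45 in the knockout-labelled arrays and 6.82, 6.85 and 6.45 in wild type (0.67, SE 0.20, adjusted p = 0.873). Slc11a2, the iron importer, differed by 0.30, and the zinc transporters Slc30a2 and Slc30a5 by 0.19 and 0.17. Mtf1, the zinc-sensing activator of metallothionein genes, differed by 0.14 with overlap, and Slc30a1, another of its targets, by 0.09. Hmox1, heme oxygenase, read 7.68, 6.13 and 7.01 against 7.25, 7.42 and 7.55 (-0.47, SE 0.31).

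Secretory cell genes read highest in 1 knockout-labelled array. Muc2, which encodes the main mucin of colonic mucus, read 3.92, 8.47 and 6.59 in the knockout-labelled arrays and 4.52, 6.03 and 4.69 in wild type (1.24, SE 0.96). Spink4 read 3.51, 8.77 and 6.07 against 3.97, 4.75 and 3.76 (1.96, SE 1.02). Reg4, a lectin made by secretory cells at the crypt base, read 2.49, 7.10 and 5.29 against 2.81, 2.99 and 2.92 (2.05, SE 0.84). Knockout replicate 2, from mouse 45, was the highest and replicate 1 the lowest of the 6 arrays in each of these, so the groups overlapped from both sides. Defa24, a Paneth cell defensin, read 1.94, 7.05 and 3.45 against 2.29, 1.86 and 1.74 (2.18, SE 0.95). Without replicate 2 Muc2 differed by 0.17, Spink4 by 0.63, Reg4 by 0.98 and Defa24 by 0.73. The part of this array in these differences was not tested otherwise.

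The mean level over the 30 goblet genes ran from 4.40 to 6.04 in the knockout-labelled arrays and from 4.68 to 5.02 in wild type. Of these genes 15 were above 0, with a median of 0.04 with all arrays. Without replicate 2 the median was -0.05, without replicate 1 it was 0.18 with 21 above 0, and over the 4 mice with both treatments -0.16 with 7 above 0. Of 18 deep crypt secretory and Paneth genes 13 were above 0, with a median of 0.15, the highest of the 33 lists, and 0.00 without replicate 2 or 0.28 without replicate 1. Of 30 enteroendocrine genes 23 were above 0 (median 0.14, or 0.09 without replicate 2 and 0.22 without replicate 1), and Cpe, which processes hormones, read 5.75, 5.98 and 5.48 against 4.98, 5.06 and 3.97 (1.07, SE 0.31). Gcg, the glucagon-like peptide gene, differed by 0.59 (SE 0.23), also without overlap. Tuft cell genes, 25 in number, had a median of 0.00, and Alox5ap, a partner of 5-lipoxygenase, lay wholly higher at 3.28, 3.18 and 3.47 against 2.90, 3.13 and 2.83 (0.36, SE 0.13).

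Of the stem cell, cell cycle and fate genes 0 were called, and their counts moved with single arrays. The 30 stem cell and Wnt target genes had a median of -0.02, with Lgr5, the crypt stem cell receptor, at -0.04. Of them 15 were above 0 with all arrays, 10 without knockout replicate 2 (median -0.15), 20 without knockout replicate 1 (0.08) and 9 without wild-type replicate 3 (-0.09). The 40 proliferation genes ran from -0.23 to 0.13 (median 0.01), with 21 above 0. Without knockout replicate 2 there were 6 above 0 and 34 below (median -0.09), and over the 4 mice with both treatments 4 and 36 (median -0.13). Leaving out wild-type replicate 1 or 3 gave 13 and 12 above 0. Of 24 Notch and secretory fate genes 14 were below 0 (median -0.04). Wholly lower were 4 (16.7%, beside 4.47% of all probe sets), and 1 lay wholly higher (4.17%, beside 4.22%). Notch3, a Notch receptor, read 5.20, 4.91 and 5.25 against 5.76, 5.83 and 5.60 (-0.61, SE 0.14, adjusted p = 0.506). Jag2, a ligand (-0.19), Hes5, a target (-0.27), and Maml1, a coactivator, lay wholly lower, while Gfi1, a secretory fate repressor, lay wholly higher (0.34). Atoh1, which commits cells to the secretory lineage, differed by 0.39 with overlap. Of the keratins, Krt23 and Krt19 (0.10) lay wholly higher and Krt14 (-0.38) wholly lower, and 0 of 24 claudin and tight junction genes kept the groups apart (median 0.03, and -0.08 for the 20 keratins).

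Genes of small intestinal absorption differed in both directions. Of 30 measured, 20 were above 0 (median 0.07), and 0 were called. Wholly higher were 4 (13.3%, beside 4.22% of all probe sets), and 2, Npc1l1 and Ada, lay wholly lower (6.67%, beside 4.47%). At an unadjusted p under 0.05 (limma), 4 were higher (13.3%, beside 1.93% of all probe sets) and 3 lower (10%, beside 2.87%). Rbp2 had the lowest difference (-1.09). Apob, the chylomicron protein, read 6.29, 4.54 and 5.67 against 3.51, 3.22 and 3.47 (2.10, SE 0.40, adjusted p = 0.296), and with vehicle it differed by 2.54. Slc10a2, the ileal bile acid transporter, read 4.30, 3.95 and 4.36 against 3.31, 2.54 and 3.46 (1.10, SE 0.26), against 0.16 with vehicle. Clca4b differed by 1.14 (SE 0.31). Sis, the brush border sucrase, read 2.44, 6.32 and 3.19 against 2.32, 2.08 and 2.28 (1.76, SE 0.75), or 0.59 without replicate 2. The other small intestinal markers Lct and Gata4 were dim in all arrays (2.35 to 3.12), and Apoa4 read 2.97 to 3.62.

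Defence genes differed little as groups. Of 49 interferon and antigen presentation genes, 31 were below 0, with a median of -0.13 with all arrays and 0.01 without knockout replicate 2. Cxcl10, a chemokine, read 2.63, 3.38 and 3.01 against 3.71, 3.67 and 3.70 (-0.68, SE 0.18, adjusted p = 0.722), and Oasl1 6.10, 5.86 and 7.01 against 7.02 in each wild-type array (-0.70, SE 0.36). Of 43 antimicrobial and defence genes 25 were below 0 (median -0.02). Cxcl1, Tlr3, Tlr4 and Nod2 lay wholly lower (9.3%, beside 4.47% of all probe sets). Defb37 and Ccl28 lay wholly higher (4.65%, beside 4.22%). Duox2 had the lowest difference (-0.85). Wfdc2, a secreted protease inhibitor, read 9.43, 9.76 and 9.34 in the knockout-labelled arrays and 9.39, 8.63 and 3.98 in wild type (2.18, SE 1.39), and wild-type replicate 3 stood far below the other 5 arrays. Ccl28, a mucosal chemokine, read 4.35, 4.88 and 4.22 against 3.64, 3.90 and 3.55 (0.79, SE 0.18, adjusted p = 0.546), with 0.03 in vehicle. The 32 genes of protein folding in the endoplasmic reticulum had a median of 0.02, the 24 of p53 and oxidative stress 0.02 and the 24 immediate early and heat shock genes -0.05. Of the stress genes, Sesn1, a p53 target, read 6.44, 6.32 and 6.73 against 6.03, 6.06 and 5.94 (0.49, SE 0.13, adjusted p = 0.719).

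Lists of cells from outside the epithelium stayed at low levels. The mean level of 27 immune genes was 2.62 to 2.81 in the knockout-labelled arrays and 2.67 to 2.73 in wild type, and of 26 stromal and endothelial genes 2.90 to 3.00 and 2.87 to 3.02. Cd68, a lysosomal protein used as a macrophage marker, was the bright exception, at 7.25, 6.96 and 7.75 against 7.90, 8.42 and 8.33 (-0.90, SE 0.21, adjusted p = 0.578). The leukocyte marker Ptprc read 2.50 to 2.79 and the macrophage marker Adgre1 2.05 to 2.31 in the same arrays. Vip, a neuropeptide, read 5.65, 3.49 and 4.41 against 3.04, 3.24 and 3.42 (1.28, SE 0.50), and the neuronal marker Elavl4 read 2.07 to 2.42. The medians of these lists were 0.01 for immune genes, 0.02 for stromal and endothelial genes and 0.01 for 11 genes of enteric neurons and glia.

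**Figure D5:**
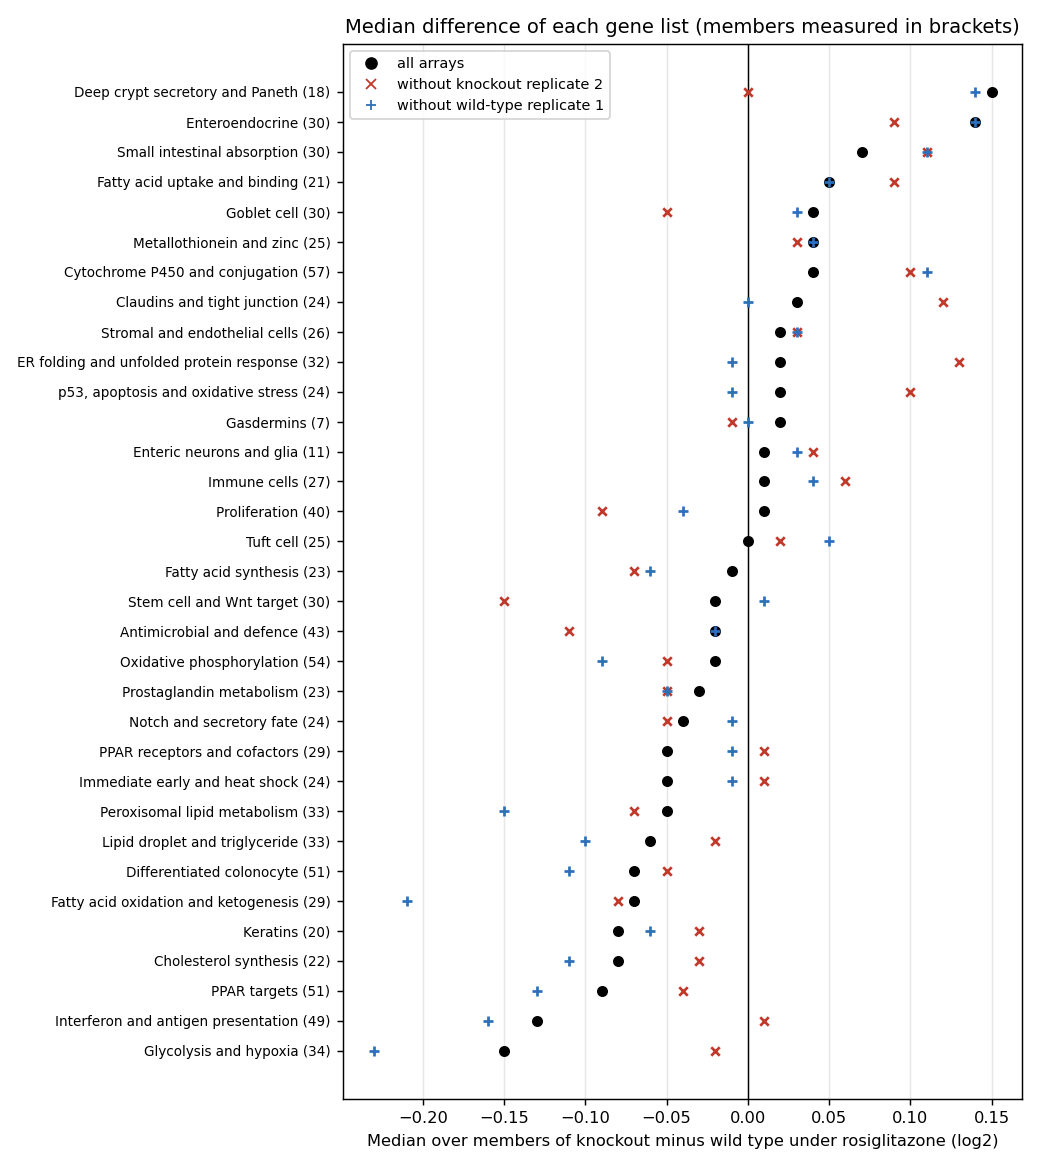
Median over members of knockout-labelled minus wild type under rosiglitazone (log2) for each of the 33 gene lists, with all arrays (black), without knockout replicate 2 (red crosses) and without wild-type replicate 1 (blue plus signs). Medians with all arrays run from -0.15 for glycolysis and hypoxia to 0.15 for deep crypt secretory and Paneth genes, and leaving out knockout replicate 2 brings both near 0.

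Across the 33 lists, 30 had no called member, and 17 medians were below 0. Leaving out knockout replicate 2 turned the sign of 6 medians. The called members were Mt1 and Cyp2c65, so Arl14, Adhfe1 and 1810065E05Rik belong to none of the lists.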

How the data were processed

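RNA of 10 organoid cultures was hybridised to Affymetrix whole-transcript arrays. The authors deposited 1 table of log2 levels made by robust multi-array averaging (RMA), per the submitters' processing notes. The RMA version and probe-set definition are not given in the sources used here. RMA equalises the arrays' distributions, so a shift shared by most genes cannot be seen, and differences between dim levels are compressed. Array medians ran from 3.54 to 3.72. Array number, 3 against 3, limits the precision.

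Of 35556 probe sets, 23099 listed in GEO's platform annotation were tested and 12457 were left out. Of those tested, 21218 have 1 symbol and 1881 several. Entrez ids matched 21185 of the former to RefSeq. A mean for each of the 4 groups was fitted over all 10 arrays with limma 3.58.1 in R 4.3.3 (statmod 1.5.0 for the block by mouse), with Benjamini-Hochberg adjustment over all 23099 and a threshold of 0.05. The fit was tested on simulated data. Where a gene has several probe sets, the one with the highest mean stands for it. Lists are described by counts and medians over members, with no test. Groups were taken from the labels, and 1001 of 1106 list entries were matched.

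The comparison and the 33 gene lists were chosen with earlier results of these data known. The genes named were Pparg, the 10 with the smallest p, called list members, up to 4 members of each list with the largest difference, and textbook PPAR targets. Other list members, non-overlapping ones included, and the gasdermin, Cyp2c and metallothionein families were named after their values were seen. Alternatives covered the samples in the fit, blocks, normalization, filters, variance settings and leaving out each array. Replicate numbers mark different mice in the 2 genotypes, so they do not pair the arrays.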

Additional observations from a re-analysis of the deposited data

How the results depend on the processing

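Mt1 passed in all 22 alternatives, and no called gene changed direction. Against 5 calls under rosiglitazone, there were 1 with only the 6 rosiglitazone arrays, after repeated quantile normalization, over all probe sets, with robust variances or without both arrays of mouse 46, 8 with an intensity trend, 9 with 1 probe set per symbol, and 16 over the 4 mice with both treatments. Leaving out 1 array gave 1 to 23. With the replicate number as a block the count was 3, but deviations of same-numbered arrays correlated at 0.024, 0.154 and 0.022, so the numbers do not pair. Mouse as a random block gave 6, centring 7 and bright probe sets 5. Against 0 calls under vehicle, there were 1 with mouse as a block, centring, repeated quantile normalization or bright probe sets, 2 with 1 probe set per symbol, the trend or robust variances, and 6 over the 4 mice, with 0 to 6 on leaving out 1 array. The difference between the contrasts gave 0 in each alternative that holds vehicle arrays. It cannot be computed from the 6 rosiglitazone arrays alone, with or without the block.

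Of 2851 gene values under alternatives, 29 reversed, and 51 of 720 list medians moved. Centring each array on its median moved the median difference over all probe sets from 0.002 to 0.071, and list counts moved with it. Peroxisomal genes then had 19 above 0 and 14 below, receptors and cofactors 18 and 11, and oxidative phosphorylation 41 and 13. Glycolysis and hypoxia genes still had 28 of 34 below 0. A list median near 0 thus gives no firm direction. Without both arrays of mouse 46, Pparg came to -0.05, Prdm16 0.03, Fabp5 0.29, Ascl2 0.01 and Cldn8 0.05. Over the 4 mice, Clca1 came to -0.37, Agr2 -0.01, Muc2 -0.11, Ang4 -0.22, Atoh1 -0.22, Neurog3 -0.17, Krt16 0.00, Retnlb -0.27, Zg16 -0.33, Ifit3 0.04 and Dusp1 0.07. The cause was not tested. Leaving out 1 array moved Pparg from -0.05 to 0.66, Prdm16 from -0.50 to 0.03, Fabp5 from -0.86 to 0.29, Chgb from -0.03 to 0.79, Ascl2 from -1.18 to 0.01, Cdk6 from -0.07 to 0.87, Atoh1 from -0.04 to 0.75, Neurog3 from -0.03 to 0.60, Cldn8 from -0.69 to 0.05, Retnlb from -0.11 to 2.02, Ifit3 from -0.94 to 0.13, Gfap from -0.08 to 0.28, Cpt1a from -0.34 to 0.00, Fabp1 from -0.11 to 0.14 and Cd36 from -0.04 to 0.16.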

Other observations

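Outside the naming rule, and chosen after the values were seen, the next genes by p under rosiglitazone included Foxd2, a forkhead transcription factor (difference -1.40, adjusted p = 0.114, limma), Apol10a, of the apolipoprotein L family (-1.57, 0.133), Sema3f, a secreted semaphorin (-1.15, 0.14), and Trim29, a tripartite motif protein (-2.01, 0.225).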
